A study of Mus musculus with 16 samples.

Results

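The collagen chains described here are the 44 protein-coding rows of the deposited table whose symbol is Col, a number, the letter a and a number, out of 36722 genes in all. Of these, 31 had a mean over the 16 libraries of at least 6.99 on the deposited log2 scale and were tested among 13385 genes. RNA was sequenced from polyA-selected libraries of lumbar dorsal root ganglia (DRG, levels L3 to L5) of C57BL/6 mice. Every mouse, controls included, had received 20 µl of 2% carrageenan, an agent that inflames the paw, into the sole of the foot. At 6 days an intrathecal injection delivered PBS (vehicle, n = 5), 1 µg of a fusion protein that joins the cytokines IL4 and IL10 (n = 6), or 0.5 µg each of unlinked IL4 and IL10 (the combination, n = 5). Ganglia were taken 6 hours after that injection, and mice without carrageenan were not analysed here. Whether samples were separate mice is not stated in the labels, so p-values measure only the spread between these samples.

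Collagens are secreted or membrane-anchored proteins whose polypeptide chains wind around each other into a helix, and each chain has its own gene. Fibrillar chains (types I, II, III, V, XI, XXIV and XXVII) build fibrils, type IV chains build the network of basement membranes, and the fibril-associated chains (FACIT) sit on fibril surfaces. In peripheral ganglia and nerves, fibroblasts lay down the fibrillar collagens of the connective tissue, while Schwann cells, satellite glia, endothelium and mural cells rest on basement membranes.

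The values are variance-stabilised log2 values. They decode exactly to whole numbers, called scaled values here, which are not read counts, so the depth of a library is unknown. The scaled values of a library summed to between 16707007 and 20879857. Differences are given on the deposited log2 scale, which understates the change of weakly expressed genes, with the SE of limma and p-values adjusted by Benjamini-Hochberg over all 13385 genes. All 8 neuronal, 10 Schwann cell and 6 satellite glia markers passed the filter on low values. So did all 8 endothelial and 8 macrophage markers and 5 of 6 skeletal muscle markers. Passing the filter therefore does not tell tissues apart. Because the tissue is a mixture, fewer cells of a type and less RNA per cell cannot be told apart in any result that follows.

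The class sizes were as follows. Of 11 fibrillar chains 10 were tested, of 6 type IV chains 4, of 6 type VI chains 3, of 9 fibril-associated chains 5, of 4 transmembrane chains 2, and of 3 chains of types VIII and X 2. The single type VII chain, both multiplexins (types XV and XVIII) and both remaining chains, Col26a1 and Col28a1, were all tested. The 13 chains below the filter were Col2a1, Col4a4, Col4a6, Col6a4, Col6a5, Col6a6, Col9a1, Col9a3, Col10a1, Col13a1, Col17a1, Col20a1 and Col22a1. Just under it lay Col4a4 with a mean of 6.97, Col20a1 with 6.96 and Col6a5 with 6.92, and just above it Col26a1 with 7.07, Col11a2 with 7.10 and Col7a1 with 7.17. Col2a1 and Col10a1, the chains of cartilage and of its growth zone, had scaled values of 7 to 24 and of 6 to 20 over the 16 libraries. Col9a1 (1 to 4) and Col17a1 (1 to 9), a chain of epithelial attachment, were near the bottom of the table.

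Levels between chains were compared only per length, as scaled values per kb of annotated exon in vehicle libraries. The length joins all annotated exons of a gene, so it can exceed that of the transcript present. The highest was Col28a1, a chain of von Willebrand domain type known from peripheral nerve, at 510 ± 41.1 per kb (SD, n = 5). The next 6 were Col3a1 at 211 ± 23.0, Col1a2 at 201 ± 12.8, Col1a1 at 199 ± 41.9, Col4a1 at 193 ± 32.4, Col4a2 at 173 ± 37.5 and Col5a3 at 162 ± 31.0 per kb. Each of these 6 differed from its neighbour in the order by less than the SD of either. At the low end stood Col4a3 at 5.48 ± 1.28, Col26a1 at 6.07 ± 0.393 and Col7a1 at 6.18 ± 1.00 per kb. By this measure the main chains of types I, III and IV lay within a narrow band, which depends on the lengths used. The lengths were 12426 bases for Col1a2, 9816 for Col3a1 and 6563 for Col1a1. Before division by length, the mean scaled values in vehicle were 2504, 2067 and 1303 in the same order. Chains of 1 network could lie far apart: Col4a3 and Col4a5 (8.22 ± 1.43 per kb) were far below Col4a1 and Col4a2.

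**Figure D1:**
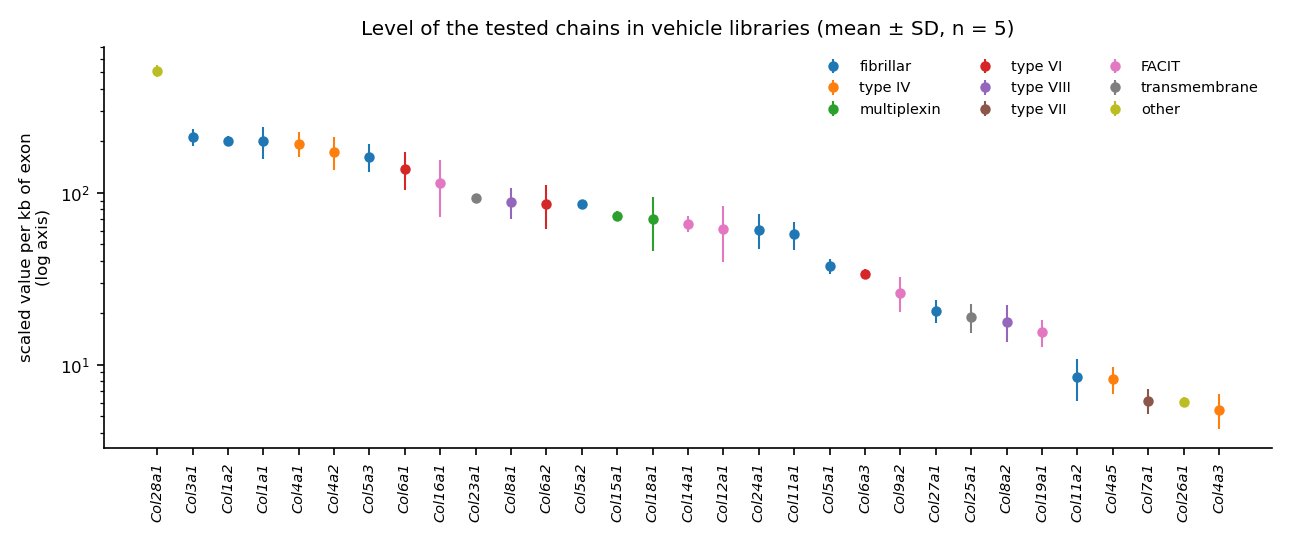
Level of the 31 tested collagen chains in vehicle libraries, as the scaled value per kb of exon on a log axis (mean ± SD, n = 5), coloured by class. Col28a1 is highest at 510 per kb, 6 chains from Col3a1 to Col5a3 lie between 162 and 211 per kb, and Col4a3 is lowest at 5.48 per kb.

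Sequences upstream of the chains are shown for Col4a1, Col4a2, Col16a1 and Col18a1, the 4 chains whose fusion protein libraries all lay above the combination libraries, and for Col15a1, which was lower with the fusion protein against vehicle and did not pass between the treatments. The windows are those of RefSeq on build GRCm38.p6, from 250 bases before to 50 bases after the start of transcription, written 5′ to 3′ on the strand of the gene. Capitals mark each CCAAT (or its reverse complement ATTGG) and each GGGCGG (or CCGCCC), the letters of the CCAAT box and the GC box. The windows are chr8:11312777-11313076 (minus strand) for Col4a1, chr8:11312555-11312854 (plus) for Col4a2, chr4:130047590-130047889 (plus) for Col16a1, chr10:77166481-77166780 (minus) for the upstream start of Col18a1 and chr4:47207762-47208061 (plus) for Col15a1.
Col4a1: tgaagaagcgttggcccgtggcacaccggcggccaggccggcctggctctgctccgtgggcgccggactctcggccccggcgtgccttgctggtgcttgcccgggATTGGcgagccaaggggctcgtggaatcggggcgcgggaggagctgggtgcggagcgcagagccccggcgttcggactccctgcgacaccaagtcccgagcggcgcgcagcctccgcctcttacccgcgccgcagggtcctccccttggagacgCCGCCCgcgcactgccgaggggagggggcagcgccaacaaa
Col4a2: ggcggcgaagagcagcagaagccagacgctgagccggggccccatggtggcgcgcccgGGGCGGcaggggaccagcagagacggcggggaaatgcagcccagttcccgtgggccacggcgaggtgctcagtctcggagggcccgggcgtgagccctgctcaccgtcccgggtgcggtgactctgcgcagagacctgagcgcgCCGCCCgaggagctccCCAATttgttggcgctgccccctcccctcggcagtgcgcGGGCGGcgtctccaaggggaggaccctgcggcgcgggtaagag
Col16a1: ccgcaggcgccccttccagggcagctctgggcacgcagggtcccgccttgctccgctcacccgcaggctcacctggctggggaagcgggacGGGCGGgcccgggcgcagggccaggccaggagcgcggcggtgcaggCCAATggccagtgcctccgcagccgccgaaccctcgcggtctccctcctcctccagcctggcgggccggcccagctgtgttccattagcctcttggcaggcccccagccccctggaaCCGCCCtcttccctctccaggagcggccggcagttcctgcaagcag
Col18a1: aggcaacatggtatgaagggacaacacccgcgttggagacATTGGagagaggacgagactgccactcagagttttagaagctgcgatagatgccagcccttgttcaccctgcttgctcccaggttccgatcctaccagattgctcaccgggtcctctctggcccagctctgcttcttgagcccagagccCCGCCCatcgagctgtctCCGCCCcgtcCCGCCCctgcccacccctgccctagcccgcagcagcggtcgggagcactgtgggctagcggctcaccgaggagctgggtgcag
Col15a1: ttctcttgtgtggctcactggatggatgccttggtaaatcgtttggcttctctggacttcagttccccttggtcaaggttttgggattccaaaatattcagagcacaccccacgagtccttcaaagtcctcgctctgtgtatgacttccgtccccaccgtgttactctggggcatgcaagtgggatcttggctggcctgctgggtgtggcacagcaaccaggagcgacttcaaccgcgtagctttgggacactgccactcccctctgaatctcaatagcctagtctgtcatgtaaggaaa

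Col4a1 and Col4a2 are transcribed away from each other, and their windows share 78 bases. The annotated genes (chr8:11198423-11312826 on the minus strand and chr8:11312805-11449287 on the plus strand, GENCODE M21) overlap by 22 bases. The sources used here do not say whether counting used strand, so reads in that overlap cannot be assigned to either gene. The 4 windows printed for Col4a1, Col4a2, Col16a1 and Col18a1 held 1 CCAAT each and 1, 3, 2 and 3 GGGCGG, and the Col15a1 window held neither. The 1 GGGCGG of Col4a1 lies in the shared bases and is also counted for Col4a2. Of the other chains with a window that fell with the fusion protein against vehicle, Col1a2 held 2 CCAAT and 2 GGGCGG. Col5a1, Col11a2 and Col27a1 held 2 GGGCGG each and no CCAAT, and Col19a1 held neither. A second RefSeq window of Col18a1, at its downstream start, also held neither. The table gave 38 windows for 35 of the 44 collagen genes. GGGCGG stood in 23 of these 38 windows (60.5%) against 35.7% of all 32851 windows, and CCAAT in 13 (34.2%) against 37.4%. All windows include those of genes below the filter, and the sets were not matched for GC content (37.7% to 75.0% in collagen windows). The spaced pair TTCNNNGAA, the core of the sites of STAT factors, which IL4 and IL10 receptors activate, was in 5.26% of collagen windows and 8.3% of all windows. The same pair with 4 bases between, the spacing preferred by STAT6 of the IL4 receptor, was in 0 of the 38 collagen windows and 6.95% of all windows. A match describes letters only, and no match in these windows says nothing of other sites.

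Collagen RNA with the fusion protein was set against vehicle first. 10 of the 31 tested chains fell and 0 rose. The fallen chains were Col1a1, Col1a2, Col5a1, Col5a2, Col11a2 and Col27a1 of the fibrillar class, Col14a1 and Col19a1 of the fibril-associated class, the multiplexin Col15a1, and Col26a1. Of all 13385 tested genes, 13.7% were called lower and 12.0% higher by the same test, limma with an adjusted p under 0.05. At an unadjusted p under 0.05, 15 chains were lower and 0 higher, against 20.7% and 17.3% of all genes. The median difference was -0.22 over the chains and -0.02 over all tested genes, and 27 of 31 chains had a negative difference. In 5 chains every fusion protein library lay below every vehicle library, which held for 6.57% of all tested genes, and in 0 chains every one lay above (7.76% of all tested genes).

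With the combination against vehicle, 13 chains fell and 0 rose, while 12.3% of all tested genes were called lower and 24.2% higher. 6 of the 13 were fibrillar (Col1a1, Col1a2, Col5a1, Col5a3, Col11a2 and Col27a1). The others were Col4a1, Col4a2, Col6a3, Col7a1, Col16a1, Col18a1 and Col26a1. At an unadjusted p under 0.05, limma gave 15 lower and 0 higher chains, against 15.8% and 30.1% of all genes. The median difference was -0.21 over the chains and 0.06 over all tested genes. In 7 chains every combination library lay below every vehicle library (7.91% of all tested genes), and in 0 every one lay above (15.1%). Both treatments were compared with the same 5 vehicle libraries, so their shared calls are not independent. 6 chains were lower in both: Col1a1, Col1a2, Col5a1, Col11a2, Col27a1 and Col26a1. 12 chains passed in no comparison. The shares of all tested genes that were lower in both, or called in none, are not given here. Neither count is therefore read as unusual.

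Set directly against the combination, the fusion protein group was higher in 5 chains and lower in 3, with 7.35% and 22.2% of all tested genes called in these directions. Higher were Col4a1, Col4a2, Col16a1, Col18a1 and Col8a1, and lower were Col5a2, Col14a1 and Col25a1. In the first 4 of these, every fusion protein library lay above every combination library, which held for 3.09% of all tested genes. In Col5a2 every fusion protein library lay below every combination library (6.44% of all tested genes). The median difference over the chains was -0.06, beside -0.09 over all tested genes.

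**Figure D2:**
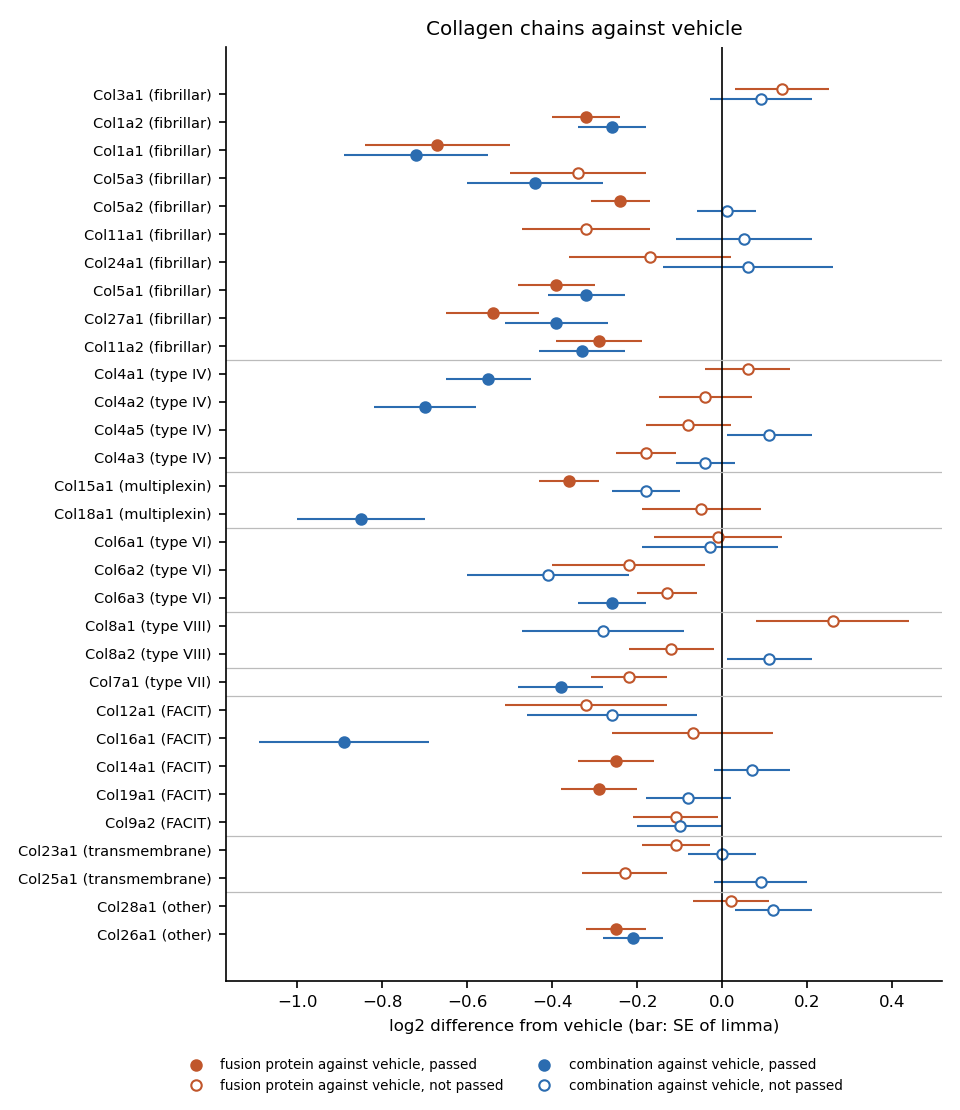
Log2 difference of each tested chain from vehicle with the fusion protein and with the combination, grouped by class (bar: SE of limma; filled: adjusted p under 0.05). No filled point lies above 0; Col4a1, Col4a2, Col16a1 and Col18a1 are far below 0 with the combination alone, and Col1a1 with both treatments.

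Among the fibrillar chains, Col1a1 and Col1a2 encode the chains of type I collagen, the main collagen of connective tissue. Col1a1 had scaled values of 1670, 1392, 1391, 983 and 1080 in vehicle libraries 1 to 5. In the fusion protein libraries it was 594 at the lowest, 797.5 at the median and 1001 at the highest, and in the combination libraries 1148, 736, 536, 770 and 582. Vehicle replicates 4 and 5, the lowest of their group, were the only vehicle libraries within the range of a treated group. The mean fell to 59.5% of vehicle with the fusion protein (log2 difference -0.67 ± 0.17, adjusted p = 0.0076) and to 57.9% with the combination (-0.72 ± 0.17, adjusted p = 0.00398).

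Col1a2 was 2694, 2576, 2569, 2309 and 2371 in vehicle libraries. It ranged from 1661 to 2243 with a median of 2036 in fusion protein libraries, all below the lowest vehicle library. The combination libraries, at 2314, 2082, 1753, 2227 and 2041, overlapped with vehicle in 1 library. The log2 differences from vehicle were -0.32 ± 0.08 (adjusted p = 0.00693) and -0.26 ± 0.08 (adjusted p = 0.0223). The second call ended without vehicle replicate 1 or combination replicate 3, where the difference stayed between -0.29 and -0.20 over the omissions of 1 library. The third abundant fibrillar chain, Col3a1, whose type III collagen shares fibrils with type I, did not follow: its log2 difference was 0.14 ± 0.11 with the fusion protein (adjusted p = 0.385) and 0.09 ± 0.12 with the combination (adjusted p = 0.56). Its scaled values were 1716 to 2343 in vehicle, 1786 to 2742 in fusion protein and 1821 to 2748 in combination libraries.

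The type V chains set the diameter of type I fibrils from within. Col5a1 was 292, 322, 320, 285 and 369 in vehicle libraries, from 172 to 271 in fusion protein libraries (median 215), and 296, 239, 194, 214 and 223 in combination libraries. All fusion protein libraries and all but the first combination library lay below vehicle. Its log2 differences were -0.39 ± 0.09 (adjusted p = 0.00406) and -0.32 ± 0.09 (adjusted p = 0.0116), and neither passed with GC and length trends removed (-0.21 ± 0.09 and -0.11 ± 0.09). Col5a2 fell with the fusion protein (-0.24 ± 0.07, adjusted p = 0.0153) and gave 0.01 ± 0.07 with the combination (adjusted p = 0.90). The direct difference between the treatments passed as well (-0.26 ± 0.07, adjusted p = 0.014). Its values were 757 to 888 in vehicle, 577 to 770 in fusion protein and 804 to 848 in combination libraries, the combination libraries lying within the vehicle range. Col5a3, the chain with the most restricted expression of the type, fell with the combination (-0.44 ± 0.16, adjusted p = 0.0405), and its difference with the fusion protein was -0.34 ± 0.16 (adjusted p = 0.117). The Col5a3 call ended without any 1 of 7 libraries (vehicle replicates 1, 2, 3 and 5 and combination replicates 1, 3 and 5), with differences from -0.55 to -0.33.

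Col27a1, a fibrillar chain of cartilage and embryonic tissue, fell with both treatments without overlap. It was 220, 255, 318, 243 and 300 in vehicle libraries, 92 to 197 (median 157) in fusion protein libraries, and 189, 214, 189, 205 and 108 in combination libraries. The mean was 57.4% of vehicle with the fusion protein (-0.54 ± 0.11, adjusted p = 0.00224) and 67.7% with the combination (-0.39 ± 0.12, adjusted p = 0.0151). Neither passed once GC and length trends were removed (-0.27 ± 0.11 and -0.11 ± 0.12). The type XI chains form fibrils with type II in cartilage and with type V elsewhere. Col11a2, weakly expressed at 47 to 86 in vehicle, fell by 0.29 ± 0.10 (adjusted p = 0.0365) and by 0.33 ± 0.10 (adjusted p = 0.0172) on the log2 scale. Its call with the combination ended without vehicle replicate 1 or combination replicate 5 (-0.41 to -0.26 over omissions), and that with the fusion protein in 7 of 16 omissions (vehicle replicates 1, 2 and 3, fusion protein replicates 1, 2, 3 and 6; -0.34 to -0.22). Col11a1 gave -0.32 ± 0.15 and 0.05 ± 0.16, and Col24a1 gave -0.17 ± 0.19 and 0.06 ± 0.20; neither passed in any comparison.

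The type IV chains Col4a1 and Col4a2 form the heterotrimer found in nearly all basement membranes, and they gave the clearest separation of the treatments. Col4a1 was 1749, 1496, 1139, 1259 and 1548 in vehicle libraries and 1041, 845, 937, 841 and 1014 in combination libraries. In the fusion protein libraries it was 1239 at the lowest, 1447 at the median and 1809 at the highest. Each combination library was below each library of the other groups, whose ranges overlapped almost fully. The difference was -0.55 ± 0.10 for the combination against vehicle (65.1% of its mean, adjusted p = 0.000528) and 0.61 ± 0.10 between the treatments, the fusion protein being higher (adjusted p = 0.00125), while the fusion protein against vehicle gave 0.06 ± 0.10 (adjusted p = 0.693).

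Col4a2 repeated this order. Its vehicle libraries were 1449, 1194, 876, 910 and 1299, its fusion protein libraries 852 to 1357 (median 1060) and its combination libraries 718, 600, 642, 652 and 617. All 5 combination libraries were again the lowest of the 16. The differences were -0.70 ± 0.12 (56.4% of the vehicle mean, adjusted p = 0.000217) and 0.67 ± 0.11 (adjusted p = 0.00184), with -0.04 ± 0.11 for the fusion protein against vehicle (adjusted p = 0.829). Col4a3 and Col4a5, which with Col4a4 form the type IV network of kidney and cochlea, passed in no comparison. Their differences were -0.18 ± 0.07 and -0.08 ± 0.10 with the fusion protein, and -0.04 ± 0.07 and 0.11 ± 0.10 with the combination.

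The multiplexins are proteoglycans at the outer face of basement membranes, and their C-terminal fragments (endostatin from type XVIII, restin from type XV) are known for effects on vessels. Col18a1 was 719, 496, 402, 273 and 565 in vehicle libraries, 389 to 545 (median 452.5) in fusion protein libraries and 274, 205, 222, 196 and 181 in combination libraries. Vehicle replicate 4, at 273, was the only library of the other groups inside the combination range. The mean of the combination was 43.9% of vehicle (-0.85 ± 0.15, adjusted p = 0.000369), and the fusion protein was at 212% of the combination (0.80 ± 0.14, adjusted p = 0.00281). Against vehicle, the fusion protein gave -0.05 ± 0.14 (adjusted p = 0.846).

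Col15a1 took the other course. It was 434, 458, 476, 516 and 449 in vehicle libraries, 275 to 417 (median 331) in fusion protein libraries and 375, 406, 397, 418 and 387 in combination libraries. Both treated groups lay wholly below vehicle, but only the fusion protein passed (73.4% of vehicle, -0.36 ± 0.07, adjusted p = 0.00207; combination -0.18 ± 0.08, adjusted p = 0.0698). The difference between the treatments was -0.17 ± 0.07 and did not pass (adjusted p = 0.0839).

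Of the fibril-associated chains, Col16a1 encodes a chain of fibroblasts and muscle that joins fibrils to other matrix. It was 1173, 683, 666, 429 and 910 in vehicle, 581 to 919 (median 682) in fusion protein and 350, 323, 374, 506 and 221 in combination libraries. Vehicle libraries had the widest spread, and only vehicle replicate 4 reached into the combination range. The combination was at 45.9% of vehicle (-0.89 ± 0.20, adjusted p = 0.00243) and the fusion protein at 198% of the combination (0.82 ± 0.19, adjusted p = 0.00864), with -0.07 ± 0.19 for the fusion protein against vehicle (adjusted p = 0.816). Col14a1, which binds decorin on fibrils, fell with the fusion protein against vehicle (-0.25 ± 0.09, adjusted p = 0.0423) and against the combination (-0.31 ± 0.09, adjusted p = 0.0155). The first of these calls ended in 8 of 13 other ways of processing and in 10 of 16 omissions of 1 library (vehicle replicates 2 to 5, fusion protein replicates 1, 2, 4 and 6, combination replicates 3 and 4; -0.32 to -0.22). The second held in all 16 omissions and ended with GC and length trends removed (-0.14 ± 0.09). Col19a1, a chain expressed at interneuron synapses in the brain, fell with the fusion protein without overlap, from 82 to 129 in vehicle to 60 to 79 (-0.29 ± 0.09, adjusted p = 0.0273). That call ended without vehicle replicate 3 or 5 or fusion protein replicate 4 (-0.33 to -0.25). Col12a1 (-0.32 ± 0.19 and -0.26 ± 0.20 against vehicle) and Col9a2 (-0.11 ± 0.10 and -0.10 ± 0.10) passed in no comparison.

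**Figure D3:**
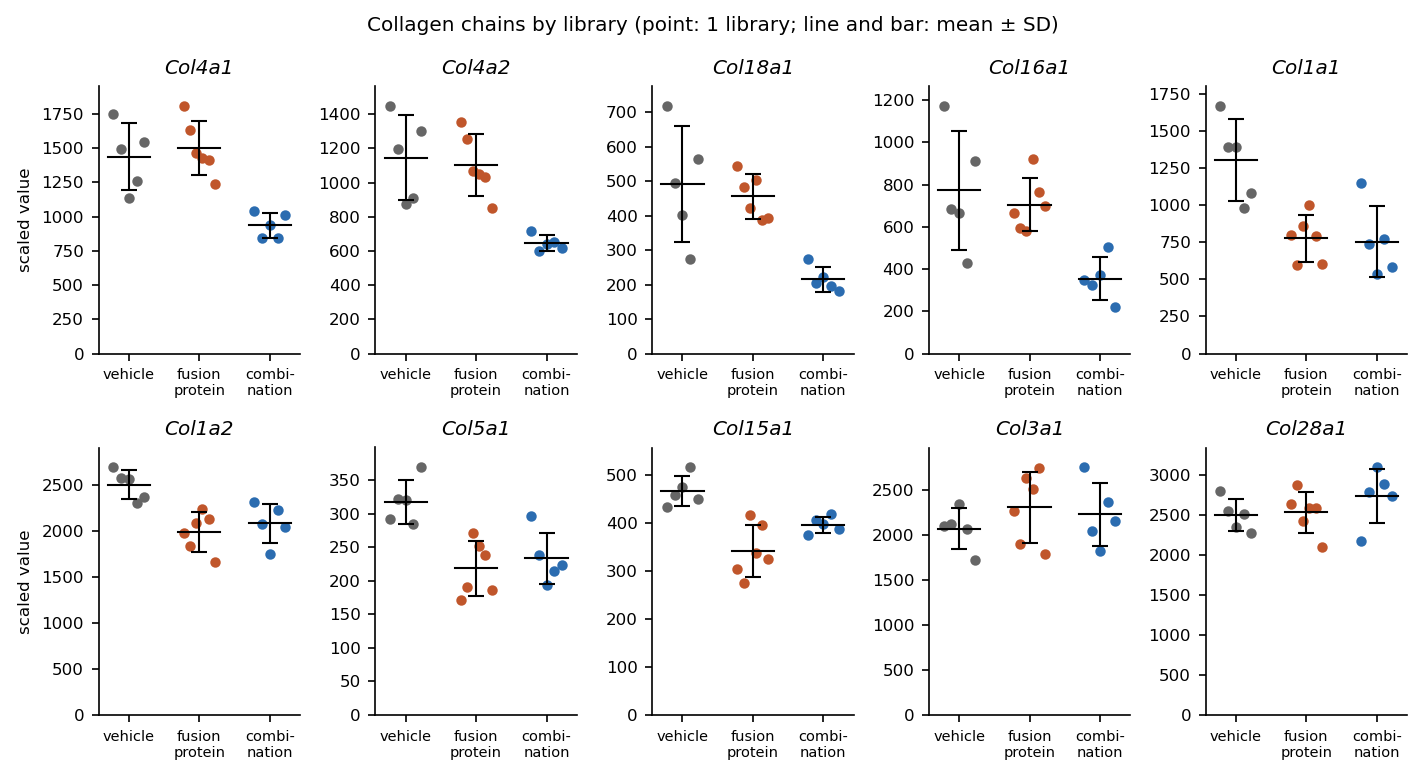
Scaled values of 10 chains in each library (point), with the mean and SD of vehicle (n = 5), fusion protein (n = 6) and combination (n = 5). In Col4a1, Col4a2, Col18a1 and Col16a1 the combination is low and the fusion protein overlaps with vehicle. In Col1a1, Col1a2 and Col5a1 the means of both treatments are below that of vehicle. Single libraries there overlap with vehicle, except for Col1a2 and Col5a1 with the fusion protein. Col3a1 and Col28a1 overlap in all groups.

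Type VI chains form beaded filaments around cells and nerve fibres. Col6a3 fell with the combination (-0.26 ± 0.08, adjusted p = 0.0135), whose 5 libraries (291 to 335) all lay below vehicle (361 to 433). With the fusion protein it was 307 to 436, a difference of -0.13 ± 0.07 (adjusted p = 0.195). Col6a1 gave -0.01 ± 0.15 and -0.03 ± 0.16 against vehicle, and Col6a2 -0.22 ± 0.18 and -0.41 ± 0.19, none past the threshold. Col7a1, the anchoring fibril chain of skin, was 56 to 81 in vehicle and 22 to 54 in combination libraries with no overlap, 52.5% of the vehicle mean (-0.38 ± 0.10, adjusted p = 0.00551). Once GC and length trends were removed, its difference was -0.03 ± 0.10 and did not pass. Its difference with the fusion protein was -0.22 ± 0.09 (adjusted p = 0.0835).

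The type VIII chains form hexagonal sheets in vessel walls and beneath the corneal endothelium. Col8a1 was 766, 833, 752, 488 and 618 in vehicle, 590 to 1534 (median 817) in fusion protein and 693, 596, 458, 502 and 474 in combination libraries. Fusion protein replicate 1, at 1534, was far above every other library. The fusion protein was higher than the combination (0.55 ± 0.18, adjusted p = 0.0364), and neither treatment passed against vehicle (0.26 ± 0.18 and -0.28 ± 0.19). That call ended without any 1 of fusion protein replicates 2 and 4 and combination replicates 2, 3, 4 and 5. Without fusion protein replicate 1 the difference was 0.39, the lowest over the omissions of 1 library, and still passed. Col8a2 gave -0.12 ± 0.10 and 0.11 ± 0.10 against vehicle.

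Of the transmembrane chains, Col25a1, a neuronal chain needed for motor innervation of muscle, was lower with the fusion protein than with the combination (-0.32 ± 0.10, adjusted p = 0.0268). Its values were 176 to 295 in vehicle, 140 to 221 in fusion protein and 185 to 313 in combination libraries, so that the groups overlapped. The call ended without any 1 of combination replicates 2 to 5 (-0.41 to -0.27). Col23a1 gave -0.11 ± 0.08 and 0.00 ± 0.08 against vehicle. Col28a1, the most abundant chain per length, gave 0.02 ± 0.09 and 0.12 ± 0.09 and passed in no comparison. Col26a1 fell with both treatments from a low level (47 to 55 in vehicle), by 0.25 ± 0.07 with the fusion protein (adjusted p = 0.0155) and by 0.21 ± 0.07 with the combination (adjusted p = 0.0347). The latter call ended in 7 of 16 omissions (vehicle replicates 1, 2, 3 and 5 and combination replicates 2, 4 and 5; -0.23 to -0.19).

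The deviations of the libraries also varied with the length and GC content of genes. The tested chains had a median exonic length of 7464 bases (3095 to 15228), against 4616 bases over all tested genes. Their GC content ran from 35.21% (Col11a1) to 56.03% (Col11a2) with a median of 48.11%, on both sides of the median of 45.73% over all tested genes. In log2 units per SD, the slope on log2 length was 0.023 to 0.103 in vehicle, -0.077 to -0.014 in fusion protein and -0.052 to 0.006 in combination libraries. The slope on GC content was 0.000 to 0.158, -0.054 to 0.080 and -0.148 to -0.028 in the same order. With both trends removed from each library, 3 chains were lower with the fusion protein (Col1a1 -0.49 ± 0.17, Col15a1 -0.27 ± 0.07 and Col19a1 -0.26 ± 0.09), beside 13.0% of all tested genes, a share of 9.68% of the chains. 0 were higher with the fusion protein (0 at an unadjusted p under 0.05), beside 12.6%. With the combination 5 were lower (Col4a1 -0.49 ± 0.10, Col4a2 -0.59 ± 0.12, Col16a1 -0.61 ± 0.18, Col18a1 -0.67 ± 0.15 and Col1a2 -0.32 ± 0.11), beside 10.6% of all tested genes, and Col8a2 was higher (0.29 ± 0.11), beside 15.5%. Of the calls with the fusion protein, 7 ended: Col1a2 (-0.17 ± 0.10), Col5a1 (-0.21 ± 0.09), Col5a2 (-0.15 ± 0.08), Col11a2 (-0.08 ± 0.09), Col27a1 (-0.27 ± 0.11), Col14a1 (-0.21 ± 0.09) and Col26a1 (-0.09 ± 0.07). Of those with the combination, 8 ended: Col1a1 (-0.46 ± 0.18), Col5a1 (-0.11 ± 0.09), Col5a3 (-0.26 ± 0.16), Col11a2 (0.00 ± 0.09), Col27a1 (-0.11 ± 0.12), Col6a3 (-0.15 ± 0.08), Col7a1 (-0.03 ± 0.10) and Col26a1 (-0.05 ± 0.08). The chain medians became -0.08 and -0.11, beside -0.01 and 0.01 over all genes.

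Between the treatments, the 5 higher chains stayed past the threshold after the trends were removed: Col4a1 at 0.66 ± 0.10, Col4a2 at 0.66 ± 0.12, Col16a1 at 0.72 ± 0.17, Col18a1 at 0.77 ± 0.15 and Col8a1 at 0.75 ± 0.19, beside 4.95% of all tested genes. In the other direction Col5a2 (-0.02), Col14a1 (-0.14) and Col25a1 (-0.12) no longer passed, and Col8a2 did (-0.33 ± 0.10), 1 lower chain beside 6.77% of all tested genes.

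The sample descriptions number the libraries 1 to 8 and 12 to 19, and the labels do not say what the numbers mean. All combination libraries, fusion protein replicates 5 and 6 and vehicle replicate 5 carry the later numbers, so treatment and number are partly confounded. Within numbers 12 to 19, with 2 fusion protein and 5 combination libraries, Col4a1 differed by 0.46 ± 0.11, Col4a2 by 0.47 ± 0.10, Col16a1 by 0.88 ± 0.18 and Col18a1 by 0.63 ± 0.11, all past the threshold (4 chains higher beside 10.4% of all tested genes, and 2 lower beside 18.5%). Col8a1 gave 0.14 ± 0.12 there and did not pass. Within numbers 1 to 8, with 4 libraries each, 7 chains were lower with the fusion protein than with vehicle, beside 8.49% of all tested genes, and 0 were higher, beside 7.67%. The 7 lower included Col1a1 (-0.66 ± 0.16), Col27a1 (-0.55 ± 0.13) and Col15a1 (-0.40 ± 0.10). The combination could not be compared with vehicle within the later numbers, where vehicle has 1 library. That library, vehicle replicate 5, had 1548 for Col4a1, 1299 for Col4a2, 565 for Col18a1 and 910 for Col16a1, above the highest combination library in each (1041, 718, 274 and 506). With the later numbers as a term in the fit, the 10 chains that fell with the fusion protein all passed again, beside 14.2% of all tested genes, and 0 were higher, beside 12.7%. In that fit 8 chains were lower with the combination than with vehicle, beside 11.5% of all tested genes, and 0 higher, beside 20.2%. Col1a1 (-0.55 ± 0.23), Col1a2 (-0.18 ± 0.11), Col6a3 (-0.20 ± 0.10), Col11a2 (-0.37 ± 0.14) and Col26a1 (-0.21 ± 0.10) no longer passed. The last 3 differences stayed near their size without the term (-0.26, -0.33 and -0.21), with a larger SE. Between the treatments 4 chains were higher in that fit, beside 10.0%, and 2 lower, beside 22.8%. With that term and the trends removed together, 2 chains stayed lower with the fusion protein (Col15a1 and Col19a1), beside 13.2% of all tested genes. In the same fit the combination gave -0.41 ± 0.14 for Col4a1, -0.49 ± 0.16 for Col4a2, -0.69 ± 0.25 for Col16a1 and -0.59 ± 0.21 for Col18a1 against vehicle, none past the threshold, and Col19a1 alone was called lower, beside 5.75% of all tested genes (0 higher, beside 6.81%). Between the treatments the 4 chains Col4a1, Col4a2, Col16a1 and Col18a1 passed there too, beside 3.4% of all tested genes, and 0 chains were lower, beside 3.47% (1 at an unadjusted p under 0.05).

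**Figure D4:**
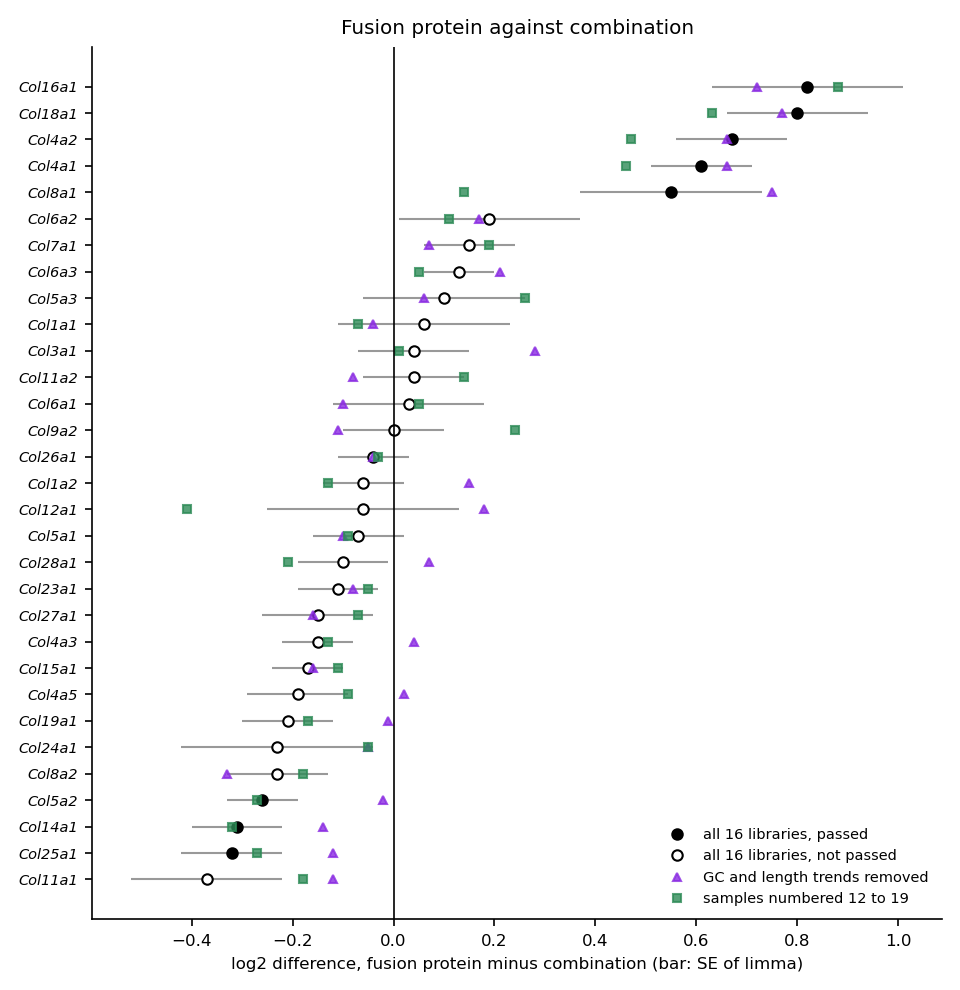
Log2 difference of the fusion protein from the combination for each tested chain (circle with SE of limma; filled: adjusted p under 0.05), beside the value with GC and length trends removed (triangle) and among samples numbered 12 to 19 only (square). Col16a1, Col18a1, Col4a2 and Col4a1 lie above 0.4 in all 3, while Col8a1 is 0.14 among the later numbers.

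Chains of 1 molecule were also compared within each library by the difference of their deposited log2 values, called a log2 ratio here. The transform compresses this difference for weakly expressed chains. It is therefore not the log2 ratio of the scaled values, and it can depend on scaling. 6 ratios in 3 comparisons gave 18 exact permutation tests, two-sided, of which 0 passed after Benjamini-Hochberg adjustment and 10 had an unadjusted p under 0.05. The lowest adjusted p was 0.0584. The ratio of Col1a1 to Col1a2 was -0.90 ± 0.19 (SD, n = 5) in vehicle, -1.25 ± 0.13 (n = 6) with the fusion protein and -1.37 ± 0.26 (n = 5) with the combination, an exact permutation p of 0.00649 and 0.0238 against vehicle (adjusted 0.0584 and 0.0714). The ratio of Col4a1 to Col4a2 was 0.31 ± 0.07, 0.41 ± 0.05 and 0.46 ± 0.11 in the same order. The ratio of Col8a1 to Col8a2 was 2.51 ± 0.56 with the fusion protein and 1.74 ± 0.10 with the combination (exact permutation p = 0.00433, adjusted 0.0584). Without vehicle replicate 4, 10 of the 18 passed, and without combination replicate 1, 3 did. For the combination against vehicle the unadjusted p was also under 0.05 for Col4a1 to Col4a2 (exact permutation p = 0.0317), Col5a1 to Col5a2 (0.0159), Col6a1 to Col6a2 (0.0159) and Col8a1 to Col8a2 (0.0317), each with an adjusted p of 0.0714. The ratios were not tested with GC and length trends removed, and paired chains can differ in GC content (Col5a1 51.15%, Col5a2 36.19%). With the trends removed, the combination differed from vehicle by -0.11 for Col5a1 and -0.13 for Col5a2. The differences were then -0.46 for Col1a1 and -0.32 for Col1a2, and -0.49 for Col4a1 and -0.59 for Col4a2. Col6a1 and Col6a2 gave 0.18 and -0.22, and Col8a1 and Col8a2 gave -0.43 and 0.29.

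The counts of the pathway lists are read beside the shares of all tested genes called higher and lower, which were 12.0% and 13.7% with the fusion protein, 24.2% and 12.3% with the combination, and 7.35% and 22.2% between the treatments. The enzymes and chaperones that modify and fold collagen chains were near these shares with the fusion protein. With the fusion protein, 3 of 22 tested members rose (Ppib by 0.34 ± 0.06, P4hb by 0.30 ± 0.07 and Plod2 by 0.22 ± 0.07) and 2 fell (P4ha3 by 0.27 ± 0.06 and P3h3 by 0.26 ± 0.08). Ppib and P4hb act on many secreted proteins besides collagens. With the combination, 6 rose and 5 fell. The median difference of the list was 0.04 and 0.01, beside -0.02 and 0.06 over all tested genes. Among those that fell were Creb3l1, a transcription factor that drives Col1a1 in bone (-0.36 ± 0.09), Fkbp10 (-0.22 ± 0.06) and Plod1 (-0.26 ± 0.08). Between the treatments, Plod3, a lysyl hydroxylase needed for type IV secretion, was higher with the fusion protein (0.47 ± 0.10, adjusted p = 0.0048), as were Fkbp10 (0.27 ± 0.06, adjusted p = 0.00695) and the collagen chaperone Serpinh1 (0.60 ± 0.14, adjusted p = 0.00907). 3 members, Sec23a, Colgalt2 and Fkbp14, were lower there. Mean scaled values of Serpinh1 were 1018 ± 239 (SD, n = 5) in vehicle, 1176 ± 182 (n = 6) with the fusion protein and 740 ± 180 (n = 5) with the combination.

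Of 12 tested enzymes of procollagen cleavage and cross-linking, 1 rose and 2 fell with each treatment, beside 12.0% and 13.7% of all tested genes with the fusion protein and 24.2% and 12.3% with the combination. Loxl2, a lysyl oxidase, rose with both (0.32 ± 0.06 and 0.24 ± 0.06), and Adamts2, which removes the N-terminal propeptide, fell with both (-0.29 ± 0.08 and -0.26 ± 0.08). Pxdn, which cross-links type IV collagen, fell with the fusion protein (-0.25 ± 0.07), and Bmp1, which removes the C-terminal propeptide, with the combination (-0.35 ± 0.09). Between the treatments 0 were higher by limma (2 at an unadjusted p under 0.05) and 1, Pxdn, was lower with the fusion protein (-0.26 ± 0.07). Of 13 collagen-degrading proteases and inhibitors, 3 rose with the fusion protein, beside 12.0% of all tested genes: the stromelysin Mmp3 (1.27 ± 0.20), the protease inhibitor Timp1 (1.63 ± 0.43) and the collagenase Mmp13 (1.09 ± 0.36). The mean scaled value of Mmp3 was 17.4 ± 15.4 (SD, n = 5) in vehicle and 142 ± 60.3 (n = 6) with the fusion protein, that of Timp1 was 315 ± 228 and 1208 ± 816, and that of Mmp13 was 18.6 ± 18.1 and 152 ± 177, so that Timp1 and Mmp13 varied widely between libraries. Of the same list 2 fell, beside 13.7% of all tested genes, Mmp15 (-0.60 ± 0.10) and Timp2 (-0.32 ± 0.10). With the combination 0 rose by limma (0 at an unadjusted p under 0.05) and 2 fell, beside 24.2% and 12.3% of all tested genes, Mmp15 (-0.52 ± 0.10) and Mmp14 (-0.33 ± 0.09). Timp1 (1.94 ± 0.43), Mmp3 (0.87 ± 0.20) and Mmp14 (0.35 ± 0.09) were higher with the fusion protein than with the combination, and Timp2 and Ctsk were lower.

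Of 11 tested collagen receptors, Ddr1, a receptor kinase, fell with both treatments (-0.33 ± 0.08 and -0.64 ± 0.09), as did Adgrg1, an adhesion receptor of type III collagen (-0.39 ± 0.10 and -0.32 ± 0.11). Adgrg6, an adhesion receptor that binds type IV collagen and is needed for myelination, fell with the fusion protein (-0.24 ± 0.09), and the integrin chain Itgb1 rose with the combination (0.40 ± 0.08). In all, 0 rose by limma (1 at an unadjusted p under 0.05) and 3 fell with the fusion protein, beside 12.0% and 13.7% of all tested genes. With the combination 1 rose and 2 fell, beside 24.2% and 12.3%. Between the treatments Ddr1 was higher (0.31 ± 0.08) and Adgrg6 lower (-0.37 ± 0.09) with the fusion protein. Of 19 fibril-binding proteoglycans and glycoproteins, 1 rose and 2 fell with the fusion protein, beside 12.0% and 13.7% of all tested genes (Dcn 0.27 ± 0.10, Tnxb -0.46 ± 0.12 and Podn -0.32 ± 0.11). With the combination, 5 rose and 3 fell, beside 24.2% and 12.3%. Those that rose were led by Lum (0.69 ± 0.10), Dcn (0.60 ± 0.10) and Ogn (0.66 ± 0.14), and those that fell were Tnxb (-0.91 ± 0.12), Eln (-0.31 ± 0.10) and Fbln2 (-0.30 ± 0.09). In this comparison with vehicle, the proteoglycan genes Lum, Dcn and Ogn were called higher and Col1a1, Col1a2 and Col5a1 lower. The calls of Col1a1 and Col5a1 ended with GC and length trends removed. Those of Col1a1 and Col1a2 ended with a term for the later sample numbers. Such fits are not given here for Lum, Dcn and Ogn. Between the treatments, 2 of the 19 were higher with the fusion protein (Tnxb and Fbln2) and 4 lower (Lum, Ogn, Dcn and Aspn). Of 20 genes of the TGF-beta pathway, a main inducer of collagen genes, 0 rose by limma (0 at an unadjusted p under 0.05) and 5 fell with the fusion protein, beside 12.0% and 13.7% of all tested genes (Ski -0.44 ± 0.07, Ltbp3 -0.48 ± 0.10, Tgfbr3 -0.28 ± 0.07, Tgfb3 -0.24 ± 0.07 and Ltbp4 -0.45 ± 0.15), and 1 rose and 5 fell with the combination, beside 24.2% and 12.3%. Between the treatments 1 was higher (Eng) and 4 lower with the fusion protein. The list was not sorted into activators and inhibitors of the pathway, so these counts give no direction of its activity, which was not tested.

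Marker genes of the cells that make collagens were read beside these results. The marker counts here and in the next paragraph are read beside the shares of all tested genes called higher and lower. These were 12.0% and 13.7% with the fusion protein, 24.2% and 12.3% with the combination, and 7.35% and 22.2% between the treatments. The summed scaled value of 10 fibroblast markers was 16518 to 18990 in vehicle, 19376 to 22017 in fusion protein and 20972 to 28015 in combination libraries. Dcn alone made up most of it, with a mean of 9668 ± 1014 (SD, n = 5), 11689 ± 1108 (n = 6) and 14782 ± 2328 (n = 5). Of 9 tested members 1 rose with the fusion protein (Dcn) and 3 rose with the combination (Lum, Dcn and Cd34), and 0 fell with either. At an unadjusted p under 0.05 by limma, 0 fell with the fusion protein and 2 with the combination (Scara5 -0.30 ± 0.13 and Pi16 -0.30 ± 0.14). Between the treatments Scara5 was higher and Lum, Dcn and Cd34 lower with the fusion protein. Dcn and Lum are also on the list of fibril-binding proteins. The 8 endothelial markers summed to 2808 to 3427, 2840 to 3676 and 2906 to 3352, and 0 of 8 were called between the treatments by limma (1 at an unadjusted p under 0.05). Against vehicle Pecam1 rose with both treatments, and with the combination Emcn rose and Egfl7 fell. Of 7 tested mural cell markers, Pdgfrb was higher (0.33 ± 0.11) and Rgs5 lower (-0.27 ± 0.08) with the fusion protein than with the combination, and the sum of the 8 listed was 6033 to 8856, 7211 to 8802 and 8243 to 9482. Rgs5 alone made up most of that sum, with means of 5086, 5570 and 6737 in the same order. Macrophage markers summed to 1428 to 2382, 1927 to 2965 and 1771 to 2544, and 3 of 8 rose with the fusion protein (Aif1, Cd68 and Csf1r), 1 with the combination (Mrc1).

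The Schwann cell sum was 85453 to 120817 in vehicle, 91963 to 119017 in fusion protein and 98795 to 125895 in combination libraries, with 0 of 10 members called with the fusion protein against vehicle by limma (0 at an unadjusted p under 0.05), 4 higher with the combination against vehicle and 3 lower with the fusion protein against the combination. The satellite glia sum was 33395 to 53235, 35427 to 69798 and 39011 to 49365, with 2 of 6 lower with the fusion protein and 2 higher with the combination. Apoe alone made up most of that sum, with means of 27457, 38952 and 27416 in the same order. The neuronal sum was 132457 to 174949, 127648 to 205577 and 143509 to 176400, with 1 of 8 lower with the fusion protein, and 2 higher and 1 lower with the combination. The perineurial and meningeal sum was 4178 to 15383, 6105 to 13336 and 7084 to 22648, a wide spread in every group. Ptgds alone made up most of it, with a mean of 7194 ± 4451 (SD, n = 5), 7704 ± 3015 (n = 6) and 8827 ± 6021 (n = 5). Of this list Itgb4 fell with both treatments while Cldn1 rose with the combination. Cartilage and bone markers summed to 1274 to 1467, 1130 to 1531 and 1483 to 1752, with Matn3 (1 to 2), Bglap (1 to 9) and Sp7 (1 to 11) at or near the lowest value. Hapln1 alone made up most of that sum, with means of 808, 827 and 1070 in the same order. Of the 5 tested, 0 were called with the fusion protein (3 lower at an unadjusted p under 0.05), and Chad and Comp fell and Hapln1 rose with the combination. Skeletal muscle markers summed to 42 to 3728, 38 to 896 and 26 to 1041, with 0 of 5 called in any comparison by limma (0 at an unadjusted p under 0.05). Blood and bone marrow markers summed to 2030 to 8772, 2304 to 7081 and 3345 to 7778, and of 7 tested only Mpo was called, lower with each treatment. The part of cell composition in the collagen differences was not tested.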

How the data were processed

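PolyA-selected RNA from lumbar DRG was sequenced in 16 libraries. The submitters' processing notes name FastQC, STAR, HTSeq and DESeq2 with the mouse build GRCm38; versions, the counting settings and the scaling are not given in the sources used here. The authors deposited log2 values after a variance-stabilising transform, which compresses differences near the lowest value (5.99). All values decoded to whole scaled values within 0.01, of which 34 were 0. Since these are not read counts, no count test, counting interval or depth is given. The authors' p-value columns of the deposited table name no comparison and were not used.

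Genes with a mean of at least 6.99 (the lowest value plus 1) were tested on the deposited log2 values with limma 3.58.1 in R 4.3.3, with 1 mean per group over all 16 libraries, a trended and robust prior, two-sided, adjusted by Benjamini-Hochberg over 13385 genes at 0.05. Ratios of chains within a library were compared by exact permutation tests. GC content is the percent value of each gene in the deposited table, and its making is not stated in the file headers. Lengths and coordinates came from GENCODE M21 on GRCm38 (36429 genes matched) and promoter windows from RefSeq. The alternatives were other filters, quantile normalization, median centring, other priors, only the groups compared, a replicate block, a term for the later sample numbers, samples 1 to 8 or 12 to 19 alone, GC and length trends removed, log2 of the scaled value plus 1, and each library left out. Leaving out vehicle 1 and fusion protein 1 together was chosen after seeing the data. The fits were tested on simulated data. All collagen chains are reported, and up to 3 passing genes with the lowest p are named per direction of each pathway list, with others named where they bear on a chain. The members and lists were chosen with earlier results of these data known. Tables and figures were made with Python 3.11.15, pandas 2.3.3, numpy 2.4.6 and matplotlib 3.10.9.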

Additional observations from a re-analysis of the deposited data

Results flagged for a closer look

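A sample that stood apart from the rest of its group was looked for in 93 groups (31 chains in 3 groups) and found in 5, where chance gives about 1 in 20, or 4.65. Fusion protein replicate 1 was the lowest of its group in 3 of the 5: Col24a1 had a scaled value of 215 (others 363 to 482), Col25a1 had 140 (others 195 to 221) and Col23a1 had 382 (others 489 to 530). Col4a5 was highest in vehicle replicate 4, at 72 (others 48 to 54). Col27a1 was lowest in combination replicate 5, at 108 (others 189 to 214). The gap to the nearest library, as a share of the range of the group, ran from 0.629 (Col24a1) to 0.803 (Col27a1). These shares are not those of the scaled values printed here. Col8a1 in fusion protein replicate 1, at 1534 (others 590 to 922), was not among the 5.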

How the results depend on the processing

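Of the 31 called differences, 5 held under every alternative and every omission of 1 library: Col15a1 for the fusion protein against vehicle, and Col4a1, Col4a2, Col16a1 and Col18a1 between the treatments. With GC and length trends removed, 3 chains were lower with the fusion protein against vehicle. With the combination against vehicle 5 were then lower and 1 higher, and between the treatments 1 was lower. With a term for the later sample numbers, 8 were lower with the combination. With both, the counts were 2, 1 and 0 lower in the order of the comparisons (10 and 1 at an unadjusted p under 0.05 by limma in the last 2), and 3 of the 31 called differences turned sign (differences that had not passed are not counted here): Col11a2 for the combination against vehicle (0.04), and Col5a2 (0.07) and Col25a1 (0.06) between the treatments; the cause was not tested. Leaving out 1 library gave 0 to 0 higher and 7 to 11 lower chains for the fusion protein against vehicle, 0 to 0 higher and 9 to 14 lower for the combination against vehicle, and 4 to 5 higher and 2 to 7 lower between the treatments. The 7 came without combination replicate 1. Of the 18 chain ratios, 0 to 10 passed. Whether the replicate numbers pair the samples was not settled. Correlations of same-numbered deviations ran from -0.196 to 0.598, and differently numbered libraries were not correlated for comparison. The fit with a replicate block gave 11 and 12 lower chains against vehicle, and 5 higher and 4 lower between the treatments. The combination could not be compared with vehicle within the later sample numbers, which hold 1 vehicle library. Depth is unknown, and differences of weakly expressed chains such as Col11a2, Col7a1 and Col26a1 are compressed by the transform.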
